A study of Mus musculus with 6 samples.

Results

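The genes described here encode the enzymes that join a polar group to bilirubin, bile acids, steroids, hormones, drugs and reactive electrophiles in the liver. UDP-glucuronosyltransferases (UGTs) of the endoplasmic reticulum add glucuronic acid from UDP-glucuronate, cytosolic sulfotransferases (SULTs) add sulfate from PAPS, and glutathione transferases (GSTs) add glutathione. The conjugates are more soluble in water and leave the hepatocyte through export pumps into bile or blood. The genes were taken by name, as protein-coding rows of the gene table called Ugt1a, Ugt2a, Ugt2b, Ugt3a, Sult, Gst of the alpha, kappa, mu, omega, pi, theta or zeta class, or Mgst, the membrane-bound glutathione transferases. This rule found 68 of the 55414 annotated genes, of which 21 were UGTs, 21 were SULTs and 26 were GSTs. The 43 genes with a mean of 1 FPKM or more over all libraries were tested (15 UGTs, 6 SULTs and 22 GSTs), and 25 were below that level. FPKM is a count of sequenced fragments scaled to the length of the gene and the depth of the library, so that levels of different genes can be compared.

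The livers came from male mice aged 12 weeks that had fasted for 16 h. The first group were hepatocyte-specific GAPDH knockouts (genotype GapAlb KO) that drank water with 5% serine, the second were the same knockouts on plain drinking water, and the third were controls of genotype Gapfl on plain water. RNA-seq libraries numbered 2 per group, and RNA of 2 mice was pooled for every one of them, so that the spread within a group is that between pools. No control group on serine is among the samples, and the driver of the knockout is not given in the sources used here beyond the hepatocyte specificity in the title. Gapdh, the targeted gene, had 20.0 and 23.52 FPKM in knockouts on serine and 23.75 and 17 FPKM in knockouts on water, against 1091.44 and 1390.84 FPKM in controls, which fitted the labels.

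Depth, inferred from the spacing of low FPKM values, was 17.3 M to 19.4 M fragments for a library, and 17480 to 17908 genes had a value above 0. For 40 of the 43 genes every library held at least 50 implied fragments, and the other 3 were Gsta1, Sult1e1 and Mgst3. The liver label was checked against marker genes: the 7 hepatocyte markers summed to between 49000 and 70600 FPKM per library. Kidney markers summed to at most 0.18 FPKM in any library. The 4 intestinal markers summed to 42.5 and 36.9 FPKM in knockouts on serine and 51.8 and 63.5 FPKM in knockouts on water, against 43.7 and 29.6 FPKM in controls; Lgals4 made up nearly all of this, and the defining marker Cdx2 was listed at 0 in all 6 libraries. The 4 pancreatic markers, mainly Cela1, summed to 13.9 and 15.0 FPKM in knockouts on serine and 7.8 and 10.6 FPKM in knockouts on water, against 24.8 and 18.5 FPKM in controls. Hepatocyte markers summed to 58500 and 53100 FPKM in knockouts on serine and to 49000 and 60500 FPKM in knockouts on water, against 70600 and 63700 FPKM in controls. None of these 7 markers passed the test, and all 7 had negative log2 changes in both knockout groups against controls, with medians of -0.42 on water and -0.46 on serine. The 8 periportal hepatocyte markers mostly went the other way. They summed to 6770 and 8850 FPKM in knockouts on serine and 8260 and 7260 FPKM in knockouts on water. Controls had 5800 and 5070 FPKM. Against controls 6 were positive and 2 negative on water, and 7 positive and 1 negative on serine. Their medians were 0.35 on water and 0.44 on serine, and none passed. The 6 stellate cell markers summed to 90.7 and 77.4 FPKM in knockouts on serine and 61.8 and 74.3 FPKM in knockouts on water, against 66.4 and 50.4 FPKM in controls. Both libraries on serine were above all others; the 4 stellate markers tested had positive log2 changes on serine, with a median of 0.55 against controls and 0.78 against knockouts on water, and none passed. The 5 cholangiocyte markers overlapped between groups in sum, at 20.3 and 10.4 FPKM in knockouts on serine and 8.72 and 13.5 FPKM in knockouts on water, against 16.5 and 22.1 FPKM in controls. One of them, Sox9, had 0.39 and 0.35 FPKM in knockouts on serine and 0.55 and 0.66 FPKM in knockouts on water, against 3.0 and 2.32 FPKM in controls. Its log2 change was -1.85 on serine (limma adjusted p = 0.0485) and -1.51 on water (adjusted p = 0.0651). Sox9 reached the mean of 1 FPKM needed for testing only through the controls. Its knockout libraries lay near the 0.5 FPKM added before taking log2, and its call was not followed in other fits. Spp1, the only other cholangiocyte marker tested, had log2 changes of -0.18 on serine and -0.68 on water against controls, and neither passed. The part of these markers in the changes of enzymes below was not tested, and in bulk tissue fewer cells of a type cannot be told apart from less RNA per cell. Mitochondrial genes took 8.89% to 12.6% of all FPKM.

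In knockout livers on water, 1 of the 43 conjugating enzyme genes fell against controls and none rose, where 1.21% of all 11134 genes tested passed (0.808% higher and 0.404% lower). The gene was Sult2a8, a sulfotransferase for bile acids, whose level in knockouts on water was 0.320 times that in controls. In knockout livers on serine, 1 of the 43 rose against controls and none fell, where 1.18% of all genes passed (0.853% higher and 0.323% lower). That gene was Gstp3, a pi class glutathione transferase, at 2.12 times the control level. Between knockouts on serine and knockouts on water none of the 43 passed, nor did any other gene (0%). A gene passed at an adjusted p under 0.05, from limma on log2(FPKM + 0.5) with Benjamini-Hochberg adjustment over all genes, and log2 changes below are on that scale, which understates the change of low genes. Both calls were lost in several other fits, as given beside each gene.

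**Figure D1:**
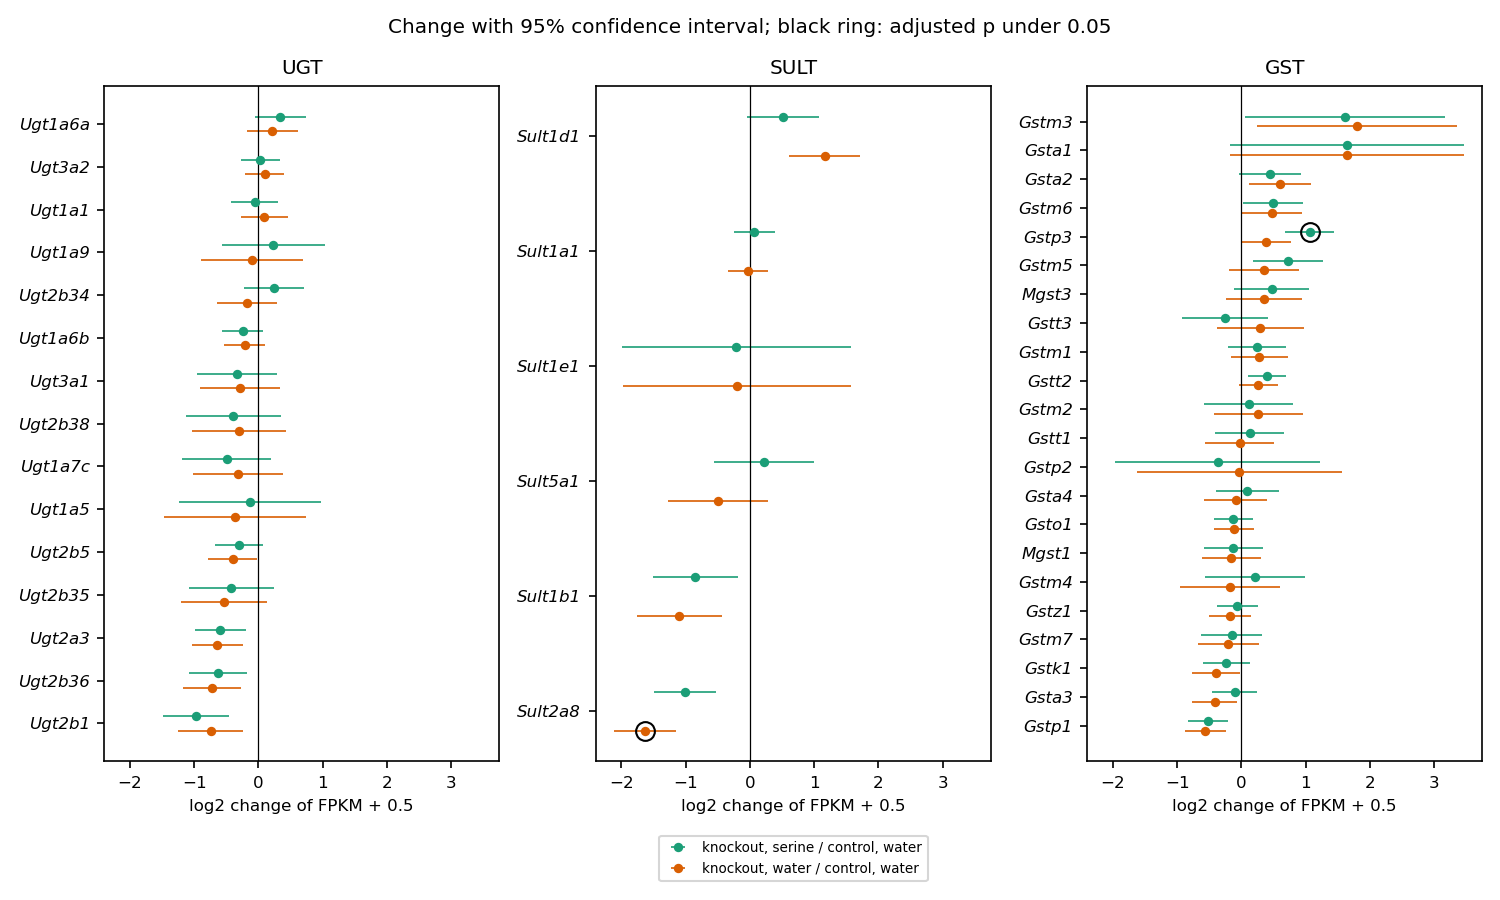
Log2 change of FPKM + 0.5 for each of the 43 genes tested, by family, for knockouts on serine against controls (green) and knockouts on water against controls (orange). Lines are 95% confidence intervals and black rings mark an adjusted p under 0.05. Sult2a8 at -1.64 on water and Gstp3 at 1.06 on serine are the ringed points, and both comparisons share the same 2 control libraries.

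In knockouts on water against controls, 28 of the 43 log2 changes were negative, where 41.1% of all genes tested were negative. The median over the 43 was -0.15, against 0.08 over all genes, and it was -0.03 without water replicate 1. The UGTs had a median of -0.31, with 12 of 15 negative, and the SULTs a median of -0.35, with 5 of 6 negative. The SULT median was -0.05 without water replicate 2, -0.86 without water replicate 1 and -0.72 without control replicate 1. The GSTs had a median of 0.12, with 11 of 22 negative, and -0.03 with a filter at 5 FPKM. In knockouts on serine against controls the median was -0.30 for the UGTs, -0.07 for the SULTs and 0.12 for the GSTs, against 0.16 over all genes; the GST median was -0.05 after median-of-ratios scaling, and that of the SULTs was near 0 (-0.0009) after scaling to TPM. These medians on serine rested on single libraries. That of the UGTs was 0.02 without serine replicate 2 and -0.59 without serine replicate 1. Leaving out control replicate 2 gave the SULTs 0.11, and leaving out control replicate 1 gave them -0.42. The GST median was 0.39 without serine replicate 2 and -0.02 without serine replicate 1. Negative log2 changes were 23 of 43 in knockouts on serine against controls, where 33.7% of all genes were negative, and 17 of 43 in knockouts on serine against knockouts on water, where 36.1% were. In that last comparison the median over the 43 genes was 0.05, against 0.08 over all genes, and it was -0.10 without serine replicate 1, 0.22 without serine replicate 2 and -0.03 after median-of-ratios scaling.

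Libraries of the 2 groups did not overlap for 10 genes on the higher side and 13 on the lower side in knockouts on water against controls, where 34.4% of all genes did not overlap on the higher side and 20.9% on the lower. In knockouts on serine against controls these counts were 11 and 10, with 41.5% and 15.5% over all genes, and in knockouts on serine against knockouts on water they were 8 and 3, with 26.9% and 10.9%. An unadjusted p under 0.05 was reached by 5 genes on the higher and 9 on the lower side in knockouts on water against controls, where 14% and 7.63% of all genes did so. The same counts were 5 and 6 in knockouts on serine against controls, where all genes gave 19.8% and 5.95%, and 2 and 1 in knockouts on serine against knockouts on water, where all genes gave 5.19% and 2.04%.

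**Figure D2:**
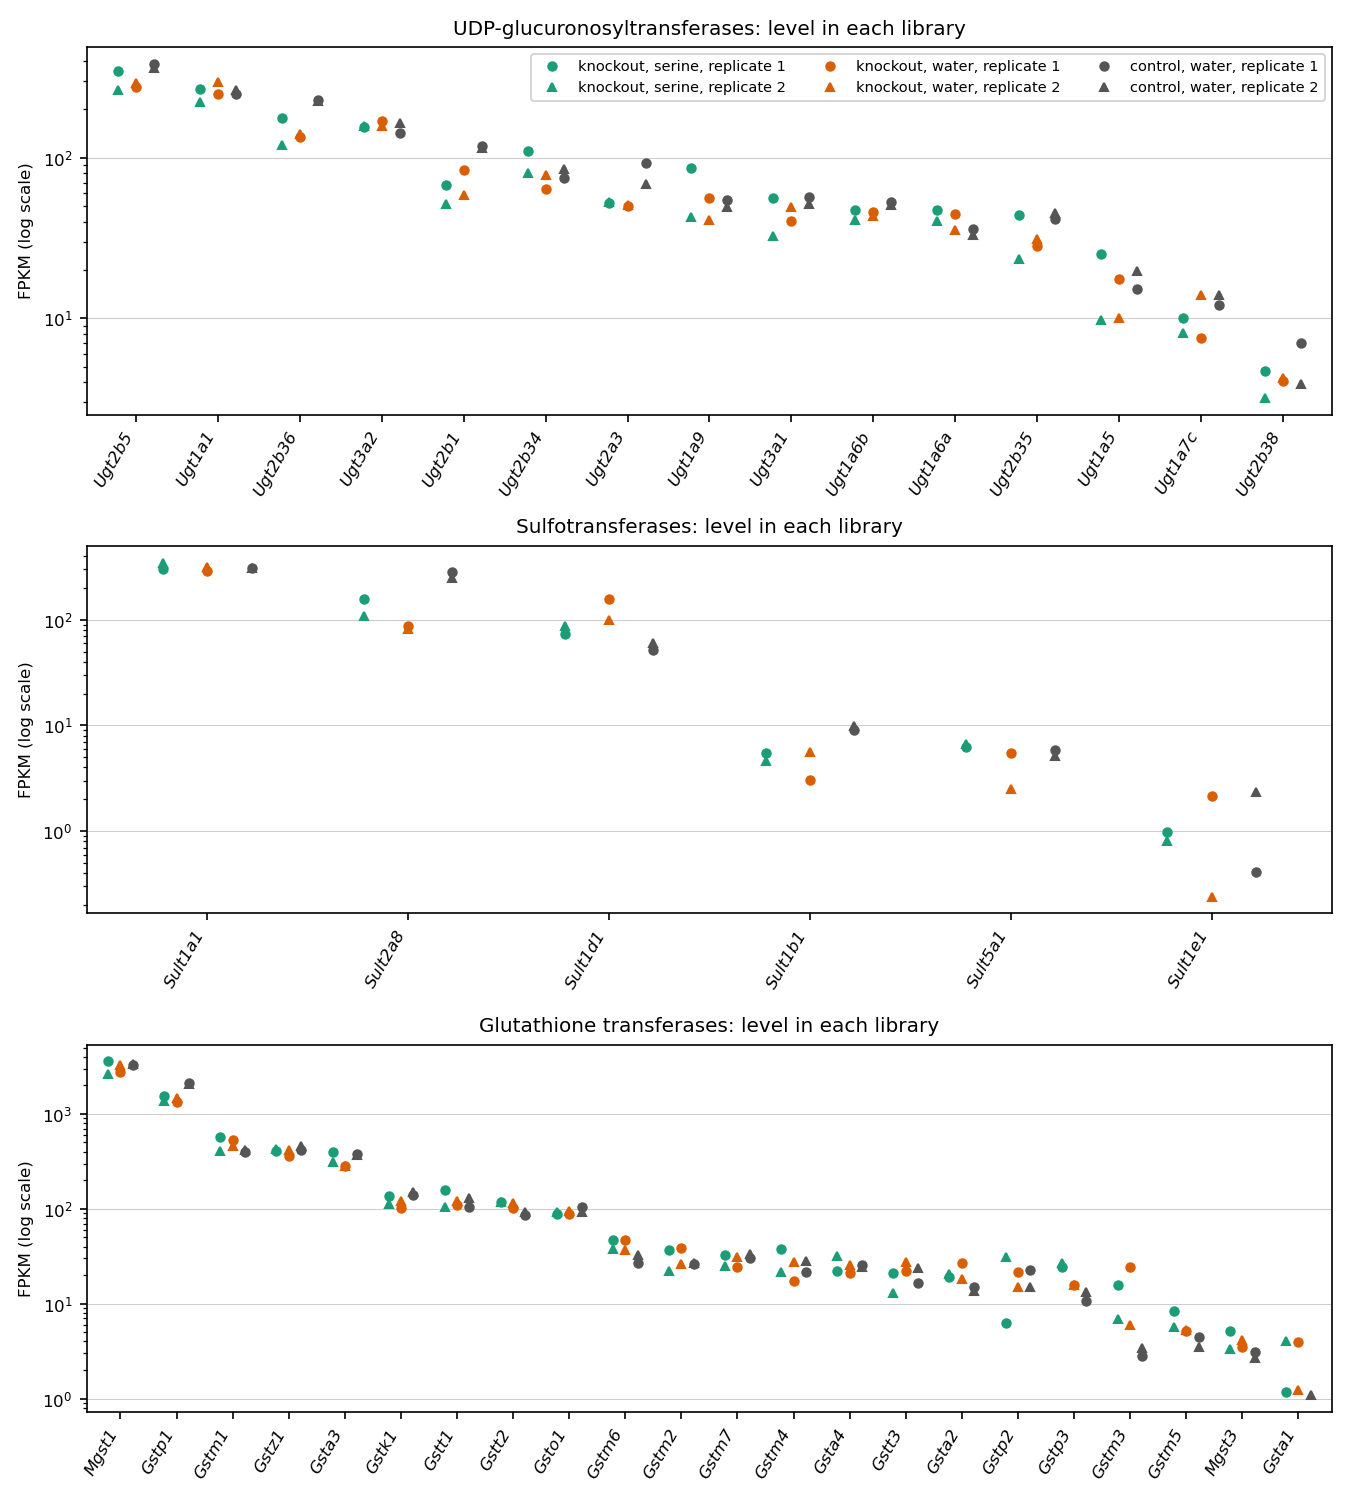
FPKM of each tested gene in each library on a log axis, in order of the mean level within a family. Circles are replicate 1 and triangles replicate 2 of knockouts on serine (green), knockouts on water (orange) and controls on water (grey). Levels run from Mgst1 at 2602.02 to 3579.52 FPKM down to Sult1e1 at 0.24 to 2.34 FPKM, and Gsta1 in control replicate 1, listed at 0, has no point.

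A few genes held most of each family's level. Among the UGTs, Ugt2b5, Ugt1a1, Ugt2b36 and Ugt3a2 together made up 65.2% of the summed FPKM. Among the SULTs, Sult1a1 took 54.2%, Sult2a8 28.0% and Sult1d1 15.3%. Among the GSTs, Mgst1 took 46.9% and Gstp1 24.7%. The UGT sum was 1497 and 1151 FPKM in knockouts on serine and 1271 and 1301 FPKM in knockouts on water, against 1566 and 1549 FPKM in controls. The SULT sum was 542.9 and 553.6 FPKM in knockouts on serine and 542.7 and 504.5 FPKM in knockouts on water, against 655.0 and 631.7 FPKM in controls. Both sums were lower in every knockout library than in either control library. The GST sum was 7260 and 5799 FPKM in knockouts on serine and 5935 and 6588 FPKM in knockouts on water, against 7225 and 7377 FPKM in controls, so that replicate 1 on serine lay between the controls.

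The 25 genes below 1 FPKM included 12 that were listed at 0 in all 6 libraries, 4 UGTs and 8 SULTs. Of the 8 Sult2a genes, only Sult2a8 was tested, and Sult2a1, the sulfotransferase of the same subfamily best known from steroid sulfation, had between 0 and 0.16 FPKM. Just above the limit were Gsta1, with a mean of 1.918 FPKM, and Sult1e1, with 1.153 FPKM. Just below it were Ugt1a10, with 0.988 FPKM, and Sult2a7, with 0.917 FPKM.

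Among the UGTs, the Ugt1a genes and the Ugt2 genes are built differently. The Ugt1a genes on chromosome 1 are alternative first exons spliced to the same downstream exons, and Ugt1a1 is the enzyme that glucuronidates bilirubin. The Ugt2 genes are separate genes on chromosome 5 and act mainly on steroids, bile acids and drugs. Of 9 Ugt1a genes 6 were tested, and of 10 Ugt2 genes 7 were tested. No UGT passed the test in any comparison.

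Ugt1a1 had 269.12 and 223.58 FPKM in knockouts on serine and 249.67 and 296.9 FPKM in knockouts on water, against 249.52 and 262.36 FPKM in controls. The groups overlapped, and the log2 change of knockouts on water against controls was 0.09 with a 95% confidence interval of -0.27 to 0.45. The 6 Ugt1a log2 changes in knockouts on water against controls ran from -0.37 to 0.21, with a median of -0.16. Ugt1a9, an enzyme for bulky phenols, had 86.77 and 42.51 FPKM in knockouts on serine, a 2.04-fold gap between 2 libraries of 1 group. Between 57.2% and 100% of the 100-base windows of each Ugt1a transcript also occurred in another gene's transcripts, most often another Ugt1a gene, so the split of fragments among the Ugt1a genes is uncertain. Their sum depends less on that split, and it was 485.6 and 364.9 FPKM in knockouts on serine and 421.9 and 441.1 FPKM in knockouts on water, against 420.0 and 429.1 FPKM in controls.

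All 7 Ugt2 genes tested had negative log2 changes in knockouts on water against controls, with a median of -0.54, and 6 of 7 in knockouts on serine against controls, with a median of -0.42. The median on serine was -0.14 without serine replicate 2, -0.64 without serine replicate 1 and -0.64 without control replicate 2. For 5 of the 7 both knockout libraries on water lay below both controls, as they did for 20.9% of all genes. Ugt2b5 and Ugt2b38 shared 24.7% and 24.2% of their windows with each other, so the split between these 2 genes is uncertain. Ugt2b36 had 176.26 and 120.8 FPKM in knockouts on serine and 135.39 and 140.01 FPKM in knockouts on water, against 227.9 and 225.81 FPKM in controls. Every knockout library was below both controls. The log2 change was -0.72 on water (SE 0.19, limma adjusted p = 0.108) and -0.63 on serine (adjusted p = 0.105), and neither passed; the change on water did pass with only the 4 libraries compared (adjusted p = 0.0468) and without serine replicate 1 or 2 (0.0481 and 0.0485), and that on serine without serine replicate 1 (0.0494).

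Ugt2b1 had 68.07 and 51.81 FPKM in knockouts on serine and 83.29 and 58.29 FPKM in knockouts on water, against 118.74 and 115.08 FPKM in controls. Every knockout library was below both controls, and the log2 changes were -0.97 on serine (limma adjusted p = 0.0665, and 0.0489 with a filter at 5 FPKM) and -0.74 on water (adjusted p = 0.124). Ugt2a3 had 52.13 and 52.7 FPKM in knockouts on serine and 50.39 and 50.84 FPKM in knockouts on water, against 92.32 and 68.22 FPKM in controls. Its 4 knockout libraries lay close together and below both controls, with log2 changes of -0.59 on serine (limma adjusted p = 0.096) and -0.64 on water (adjusted p = 0.106). Ugt2b5, the most abundant UGT, had 344.89 and 263.86 FPKM in knockouts on serine and 273.98 and 290.6 FPKM in knockouts on water, against 384.73 and 360.84 FPKM in controls. Here too the knockout libraries were below the controls, with a log2 change of -0.40 on water (adjusted p = 0.21). Ugt2b34, at the end of the array, was the exception on serine, with 110.59 and 80.2 FPKM in knockouts on serine and 64.09 and 77.57 FPKM in knockouts on water, against 74.91 and 84.96 FPKM in controls. The summed Ugt2 level was 800.5 and 596.1 FPKM in knockouts on serine and 639.3 and 653.0 FPKM in knockouts on water, against 947.1 and 903.9 FPKM in controls.

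The Ugt2b36 promoter is shown because this gene had the smallest unadjusted p of the Ugt2b genes on water, 0.0074. Promoter windows here are RefSeq sequences on GRCm38.p6, 250 bases before to 50 bases after a transcript start, and capitals mark motif matches. Both strands were searched for 9 motifs, where N is any base. These were the TATA box TATAAA, the NRF2 element core TGACNNNGC, the HNF1 core GTTAAT and the HNF4 core CAAAGTCCA. The others were the C/EBP core TTGCNNAA, the STAT5 core TTCNNNGAA, the nuclear receptor core AGGTCA, the forkhead core TGTTTAC and the AP-1 site TGAGTCA, and matches of different motifs may overlap. The window lies at chr5:87092506-87092805 on the minus strand. It holds TTGCNNAA, the core bound by C/EBP factors, which occurs in 10.8% of all 32851 promoters and in those of 10 of 39 genes of these families with a promoter in the table. It also holds AGGTCA, the nuclear receptor core, found in 16.3% of all promoters and in 11 of the 39. Shares over all promoters count windows, while the family counts take a gene once if any of its windows matches. A gene with several starts has more windows in which to match, so these shares and counts cannot be compared directly.
Ugt2b36: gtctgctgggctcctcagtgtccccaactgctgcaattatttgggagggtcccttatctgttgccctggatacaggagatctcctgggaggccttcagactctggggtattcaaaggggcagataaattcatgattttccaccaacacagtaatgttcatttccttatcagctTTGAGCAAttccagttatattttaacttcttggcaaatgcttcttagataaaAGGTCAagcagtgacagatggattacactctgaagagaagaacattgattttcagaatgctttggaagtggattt

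The Ugt3a pair on chromosome 15 lies apart from both clusters. The human enzymes of this subfamily use UDP-sugars other than UDP-glucuronate. Ugt3a2 had 155.07 and 157.54 FPKM in knockouts on serine and 169.65 and 157.65 FPKM in knockouts on water, against 142.28 and 165.01 FPKM in controls. These groups overlapped between water and control, and the 95% confidence interval of the log2 change was -0.21 to 0.40.

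**Figure D3:**
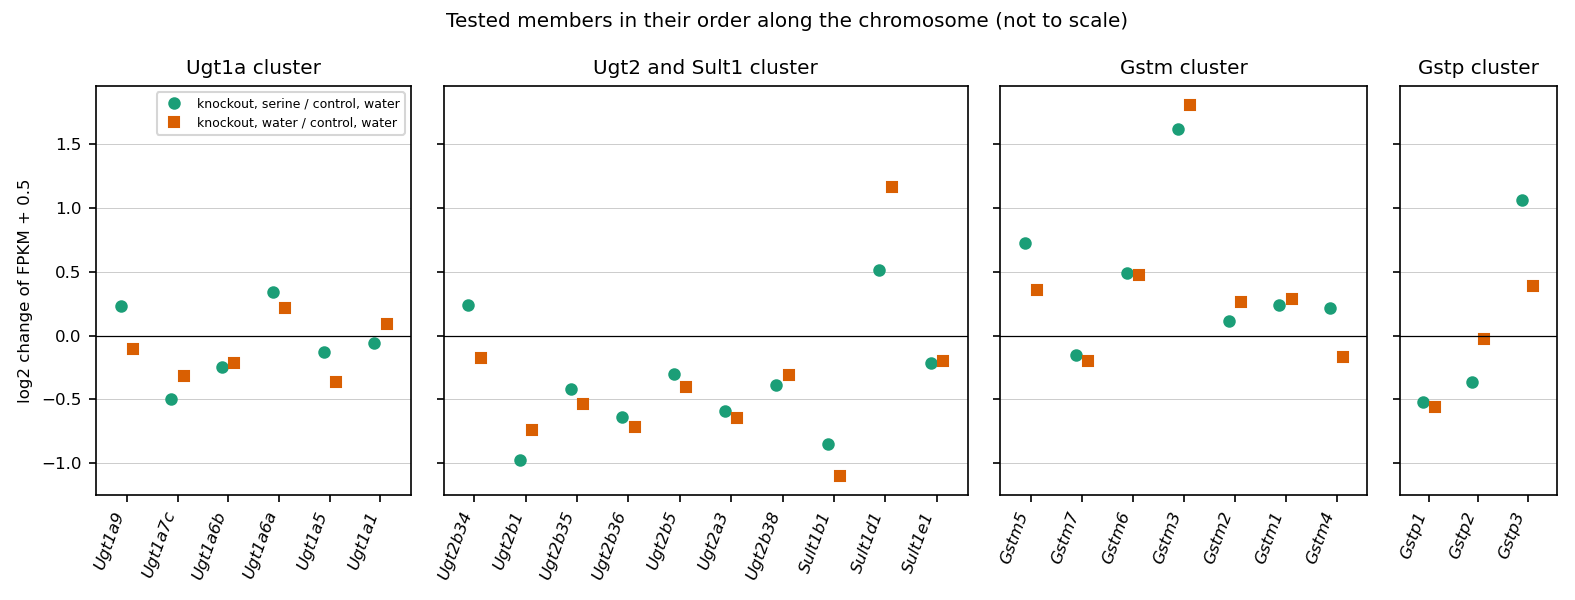
Log2 change of FPKM + 0.5 of the tested genes of 4 gene clusters in chromosomal order, for knockouts on serine against controls (green circles) and knockouts on water against controls (orange squares), with spacing not to scale. In the Ugt2 and Sult1 cluster the 7 Ugt2 genes are all below 0 on water, and Sult1d1 at 1.16 stands beside Sult1b1 at -1.10. In the Gstp cluster Gstp1 is at -0.56 and Gstp3 at 0.39 on water.

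Among the sulfotransferases, Sult2a8 fell in knockouts on water. This enzyme is known from mouse liver, where it sulfates bile acids. Sult2a8 (chromosome 7, 14144611 to 14180694, minus strand, GRCm39) had 158.56 and 107.6 FPKM in knockouts on serine and 88.07 and 80.84 FPKM in knockouts on water, against 282.27 and 245.97 FPKM in controls. The 3 groups did not overlap, with knockouts on water lowest, knockouts on serine between and controls highest. Knockouts on water averaged 84.45 ± 5.11 FPKM and controls 264.1 ± 25.7 FPKM (SD, n = 2 each). The log2 change was -1.64 (SE 0.20, limma adjusted p = 0.0306). On serine against control it was -1.01 (SE 0.20, adjusted p = 0.0601), at 0.504 times the control level; it passed with a filter at 5 FPKM (0.0433) and without serine replicate 1 (0.0443). Serine against water in knockouts gave 0.63 with a 95% confidence interval of 0.15 to 1.11 and an unadjusted p of 0.0184, but an adjusted p of 0.665 in limma. The call on water held in 8 of 15 other fits, in which the log2 change ran from -1.74 to -1.54 over all 15. It was lost when a control or a knockout library on water was left out, with limma adjusted p of 0.251 and 0.204 without control replicates 1 and 2 and of 0.204 and 0.145 without knockout replicates 1 and 2. It was also lost with no filter on low genes (0.113), with no variance trend (0.059) and with a replicate block (0.0505). The implied fragments ranged from 4383 to 15452 per library, and no 100-base window of its transcript occurred in another gene.

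RefSeq gives 2 starts for Sult2a8, at windows chr7:14438502-14438801 and chr7:14446538-14446837 on the minus strand of GRCm38.p6. Both are shown because they are the promoter candidates of the sulfotransferase that fell. The downstream window holds TATAAA beginning at -29 from the start and 2 copies of AGGTCA, at -164 and -90. TATAAA occurs in 13.6% of all promoters. The upstream window holds TATAAA on the opposite strand at -223, next to TTGCNNAA at -217. Which start is used in these livers cannot be read from gene-level FPKM.
Sult2a8, downstream start: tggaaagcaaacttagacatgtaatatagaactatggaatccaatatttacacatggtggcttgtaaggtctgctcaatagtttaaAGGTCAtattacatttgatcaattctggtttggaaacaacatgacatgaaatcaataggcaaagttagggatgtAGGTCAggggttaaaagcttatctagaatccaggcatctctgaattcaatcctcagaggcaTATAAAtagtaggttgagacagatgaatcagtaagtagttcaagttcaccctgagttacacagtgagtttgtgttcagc
Sult2a8, upstream start: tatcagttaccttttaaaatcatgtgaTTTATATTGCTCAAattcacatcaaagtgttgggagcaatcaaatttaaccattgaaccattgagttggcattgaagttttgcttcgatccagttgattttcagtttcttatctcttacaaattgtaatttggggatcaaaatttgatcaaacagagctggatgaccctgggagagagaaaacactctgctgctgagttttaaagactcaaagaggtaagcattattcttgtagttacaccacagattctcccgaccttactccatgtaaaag

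Sult1d1 and Sult1b1 lie next to each other on chromosome 5, with 16449 bases between them, and their levels differed in opposite directions from controls. Sult1d1, which sulfates dopamine and other catecholamines in mice, had 73.07 and 86.58 FPKM in knockouts on serine and 157.55 and 99.23 FPKM in knockouts on water, against 51.87 and 59.68 FPKM in controls. The groups did not overlap, and knockouts on water were highest, with their 2 libraries 1.59-fold apart. The log2 change was 1.16 on water (SE 0.23, limma adjusted p = 0.0711) and 0.51 on serine (adjusted p = 0.227), and neither passed; over 15 other fits the adjusted p on water ran from 0.0508 to 0.3. For serine against water in knockouts it was -0.65 with a 95% confidence interval of -1.21 to -0.09 (limma adjusted p = 0.678). Sult1b1, which sulfates thyroid hormones and phenols, had 5.46 and 4.61 FPKM in knockouts on serine and 3.04 and 5.59 FPKM in knockouts on water, against 9.1 and 9.82 FPKM in controls. Every knockout library was below both controls, with log2 changes of -0.85 on serine (adjusted p = 0.121) and -1.10 on water (limma adjusted p = 0.101).

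The Sult1d1 promoter is given for comparison with those of Sult2a8, since these 2 genes had the smallest unadjusted p among the SULTs on water, on opposite sides. Its window, chr5:87568957-87569256 on the minus strand, holds GTTAAT, the HNF1 core, at -79. It also holds TGTTTAC, the forkhead core, at 32 and TATAAA at 5, both on the opposite strand. GTTAAT is in 7.1% of all promoters and TGTTTAC in 3.65%.
Sult1d1: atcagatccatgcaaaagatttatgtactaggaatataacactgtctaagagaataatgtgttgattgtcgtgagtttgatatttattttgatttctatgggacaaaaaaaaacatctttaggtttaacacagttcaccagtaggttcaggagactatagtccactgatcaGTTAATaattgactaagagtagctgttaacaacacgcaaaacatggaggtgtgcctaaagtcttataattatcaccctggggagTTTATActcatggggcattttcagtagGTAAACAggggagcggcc

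No other SULT passed in any comparison. Sult1a1, the main phenol sulfotransferase, had 298.59 and 347.38 FPKM in knockouts on serine and 286.44 and 316.16 FPKM in knockouts on water, against 305.53 and 308.74 FPKM in controls. The groups overlapped, and the 95% confidence interval of the log2 change on water was -0.35 to 0.29. Sult5a1 had 6.28 and 6.63 FPKM in knockouts on serine and 5.49 and 2.48 FPKM in knockouts on water, against 5.8 and 5.17 FPKM in controls. One knockout library on water was low, and the change on serine against water was 0.72 (limma adjusted p = 0.703). Sult1e1, which inactivates oestrogens, ranged from 0.24 to 2.34 FPKM, with 4 to 43 implied fragments, and no difference was detectable at this depth.

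**Figure D4:**
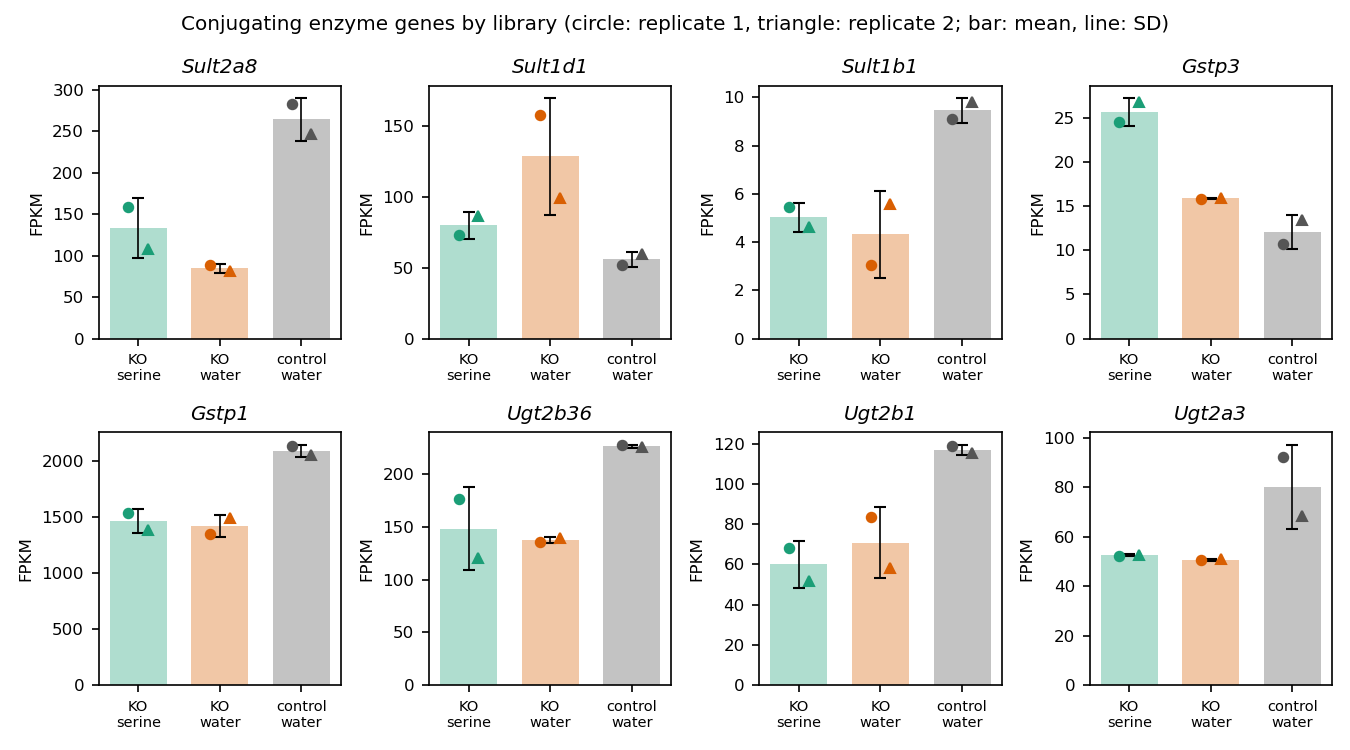
FPKM of 8 conjugating enzyme genes in each library of knockouts on serine, knockouts on water and controls on water. Bars are means, lines the SD of 2 libraries, circles replicate 1 and triangles replicate 2. Sult2a8, Sult1b1, Gstp1, Ugt2b36, Ugt2b1 and Ugt2a3 are lower in every knockout library than in either control, and Sult1d1 and Gstp3 are higher.

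Among the glutathione transferases, the pi class genes Gstp1, Gstp2 and Gstp3 lie within 24.2 kb on chromosome 19. Gstp1 and Gstp3 took opposite sides of the controls. Gstp3 (4107477 to 4109569, minus strand, GRCm39) had 24.49 and 26.76 FPKM in knockouts on serine and 15.85 and 15.88 FPKM in knockouts on water, against 10.73 and 13.43 FPKM in controls. The 3 groups did not overlap, with knockouts on serine highest and controls lowest. Gstp3 averaged 25.6 ± 1.6 FPKM in knockouts on serine and 12.1 ± 1.9 FPKM in controls (SD, n = 2 each). It rose in knockouts on serine with a log2 change of 1.06 (SE 0.16, limma adjusted p = 0.0454). On water against control the change was 0.39 (adjusted p = 0.22). Serine against water in knockouts gave 0.67 with a 95% confidence interval of 0.30 to 1.05 and an unadjusted p of 0.00434, but a limma adjusted p of 0.639. The call on serine held in 4 of 15 other fits, over which the log2 change ran from 0.89 to 1.22. It was lost when any 1 library was left out: adjusted p was 0.0564 and 0.17 without serine replicates 1 and 2, 0.106 without either knockout on water, and 0.241 and 0.165 without control replicates 1 and 2. It was also lost with no filter (0.111), median-of-ratios scaling (0.0779), no variance trend (0.0775), only the 4 libraries compared (0.106) and a replicate block (0.0897). Gstp3 shared no 100-base window with another gene and had 116 to 277 implied fragments per library.

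Gstp1, a highly abundant GST of male mouse liver, had 1534.75 and 1382.92 FPKM in knockouts on serine and 1347.48 and 1485.42 FPKM in knockouts on water, against 2126.36 and 2048.46 FPKM in controls. All 4 knockout libraries were below both controls, at 0.699 times the control mean on serine and 0.679 times on water. The log2 changes were -0.52 on serine (limma adjusted p = 0.0848) and -0.56 on water (adjusted p = 0.0918), and neither passed in any of 15 other fits. Gstp2 had 6.27 and 30.8 FPKM in knockouts on serine and 21.47 and 14.89 FPKM in knockouts on water, against 22.43 and 14.85 FPKM in controls. Its 2 libraries on serine were 4.91-fold apart. Gstp1 and Gstp2 shared 52.8% of the windows of Gstp1, so their split is uncertain, and the level of Gstp2 could include fragments of Gstp1. The summed Gstp level was 1566 and 1440 FPKM in knockouts on serine and 1385 and 1516 FPKM in knockouts on water, against 2160 and 2077 FPKM in controls.

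The promoters of Gstp1 and Gstp3 are set side by side because these neighbours differed from controls in opposite directions. They lie at chr19:4037863-4038162 and chr19:4059398-4059697, both on the minus strand. Aligned, they were identical at 48.3% of columns, while those of Gstp1 and Gstp2 were identical at 76.4%. The Gstp1 window holds TGAGTCA, an AP-1 site, at -74. Counted by window this motif is in 5.2% of all promoters, and counted by gene it is in those of 4 of the 39 genes. It was added to the search after the Gstp1 window had been read. The Gstp3 window does not hold these letters and holds TTGCNNAA at -193.
Gstp1: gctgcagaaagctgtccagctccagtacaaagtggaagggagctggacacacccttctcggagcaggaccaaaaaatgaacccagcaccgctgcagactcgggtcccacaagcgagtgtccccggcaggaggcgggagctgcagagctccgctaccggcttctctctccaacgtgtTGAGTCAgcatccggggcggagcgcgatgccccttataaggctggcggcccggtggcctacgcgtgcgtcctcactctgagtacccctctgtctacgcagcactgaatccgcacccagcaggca
Gstp3: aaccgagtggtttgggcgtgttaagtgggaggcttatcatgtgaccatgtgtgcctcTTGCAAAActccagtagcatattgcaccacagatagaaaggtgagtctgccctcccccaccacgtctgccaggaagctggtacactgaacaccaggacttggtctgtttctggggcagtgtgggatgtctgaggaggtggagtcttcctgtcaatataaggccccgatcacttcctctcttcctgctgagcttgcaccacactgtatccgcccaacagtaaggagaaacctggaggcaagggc

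The mu class genes, Gstm1 to Gstm7, lie within 149.1 kb on chromosome 3, and all 7 were tested. Their median log2 change against controls was 0.28 on water and 0.24 on serine, where the medians over all genes were 0.08 and 0.16. For 4 of 7 both knockout libraries on water lay above both controls, as they did for 34.4% of all genes. No Gstm gene passed the test. Gstm1, the most abundant of them, had 565.78 and 404.19 FPKM in knockouts on serine and 529.48 and 456.37 FPKM in knockouts on water, against 394.63 and 413.89 FPKM in controls. On serine the groups overlapped, and on water the log2 change was 0.28 with a 95% confidence interval of -0.16 to 0.73. Gstm3 had 15.87 and 6.95 FPKM in knockouts on serine and 24.26 and 5.92 FPKM in knockouts on water, against 2.8 and 3.44 FPKM in controls. All 4 knockout libraries exceeded both controls, but replicates of a knockout group differed 2.28-fold on serine and 4.10-fold on water. The log2 change on water was 1.81 (SE 0.65, limma adjusted p = 0.18). Gstm5 had 8.29 and 5.71 FPKM in knockouts on serine and 5.16 and 5.31 FPKM in knockouts on water, against 4.49 and 3.52 FPKM in controls. It was ordered like Gstp3, with knockouts on serine highest, at a log2 change of 0.72 against controls (limma adjusted p = 0.117).

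The alpha class gene Gsta3 had 392.78 and 309.7 FPKM in knockouts on serine and 281.02 and 283.14 FPKM in knockouts on water, against 378.08 and 372.66 FPKM in controls. Knockouts on water lay below both other groups, at a log2 change of -0.41 against controls (limma adjusted p = 0.176), and knockouts on serine overlapped the controls. Gsta2 had 18.96 and 20.71 FPKM in knockouts on serine and 26.7 and 18.26 FPKM in knockouts on water, against 15.16 and 13.66 FPKM in controls. All knockout libraries were above both controls, with a change of 0.60 on water (limma adjusted p = 0.162), and 35% of the windows of Gsta2 occurred in other genes. Gsta1, at 0 to 4.06 FPKM, shared 81.8% of its windows with other genes and is uncertain.

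The remaining GSTs gave no called change. Mgst1, a membrane-bound transferase that also reduces lipid peroxides and the most abundant gene of the 43, had 3579.52 and 2602.02 FPKM in knockouts on serine and 2748.31 and 3257.32 FPKM in knockouts on water, against 3271.15 and 3392.4 FPKM in controls. The knockouts on serine spanned the controls, and the 95% confidence interval of the log2 change on water was -0.62 to 0.31. Gstz1, the zeta class enzyme of tyrosine breakdown, had 410.13 and 423.36 FPKM in knockouts on serine and 358.12 and 415.29 FPKM in knockouts on water, against 413.14 and 459.97 FPKM in controls, and the groups overlapped. Of the theta class, Gstt2 had 117.35 and 117.64 FPKM in knockouts on serine and 101.38 and 114.23 FPKM in knockouts on water, against 86.41 and 92.45 FPKM in controls. The 3 groups of Gstt2 did not overlap, with a log2 change of 0.39 on serine against control (limma adjusted p = 0.117). Gstt3 had 21.26 and 12.9 FPKM in knockouts on serine and 21.99 and 27.21 FPKM in knockouts on water, against 16.69 and 23.63 FPKM in controls, and serine against water gave -0.55 (adjusted p = 0.729).

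Replicates differed more in the knockout groups. The median fold between the 2 libraries of a group over these genes was 1.31 in knockouts on serine, 1.2 in knockouts on water and 1.11 in controls. In knockouts on serine 30 of 43 genes were higher in replicate 1, and 12 differed by over 1.5-fold, compared with 9 in knockouts on water and 3 of 42 in controls.

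Genes that supply the cosubstrates were taken from lists. Of 7 genes of UDP-glucuronate supply, 1 rose in knockouts on serine against controls and none passed in knockouts on water, with medians of 0.54 and 0.33. Ugdh, the enzyme that oxidises UDP-glucose to UDP-glucuronate, had 109.77 and 124.54 FPKM in knockouts on serine and 89.32 and 74.54 FPKM in knockouts on water, against 44.07 and 49.63 FPKM in controls. The 3 groups did not overlap. The log2 change was 1.31 on serine (SE 0.15, limma adjusted p = 0.037) and 0.80 on water (adjusted p = 0.0639), and the call on serine held in 5 of 15 other fits, with an adjusted p up to 0.241. Ugp2, which makes UDP-glucose, had 140.73 and 129.78 FPKM in knockouts on serine and 74.58 and 89.11 FPKM in knockouts on water, against 86.12 and 99.5 FPKM in controls. Only the libraries on serine stood apart, with a change of 0.54 against controls (limma adjusted p = 0.0919).

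Of 8 tested genes of PAPS and sulfate supply none passed in any comparison. Papss2, which makes PAPS, had 28.91 and 24.79 FPKM in knockouts on serine and 26.02 and 25.35 FPKM in knockouts on water, against 40.2 and 36.02 FPKM in controls. All knockout libraries were below the controls, with a log2 change of -0.56 on water (limma adjusted p = 0.102).

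Of 11 tested genes of glutathione supply and turnover none passed, with a median of -0.47 in knockouts on water against controls and -0.30 in knockouts on serine against controls. Gclm, the modifier subunit of glutamate-cysteine ligase, had 49.15 and 35.62 FPKM in knockouts on serine and 31.85 and 33.98 FPKM in knockouts on water, against 66.0 and 61.49 FPKM in controls. Its groups did not overlap, with a log2 change of -0.94 on water (limma adjusted p = 0.0635). Cbs, which joins serine to homocysteine on the way to cysteine, had 239.97 and 225.76 FPKM in knockouts on serine and 191.59 and 243.96 FPKM in knockouts on water, against 401.45 and 356.55 FPKM in controls. All knockout libraries of Cbs were below the controls, at -0.81 on water (limma adjusted p = 0.0654). Gss, glutathione synthetase, lay on the other side, with 41.93 and 45.31 FPKM in knockouts on serine and 40.62 and 36.3 FPKM in knockouts on water, against 29.05 and 28.96 FPKM in controls, and a change of 0.58 on serine (limma adjusted p = 0.0672).

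**Figure D5:**
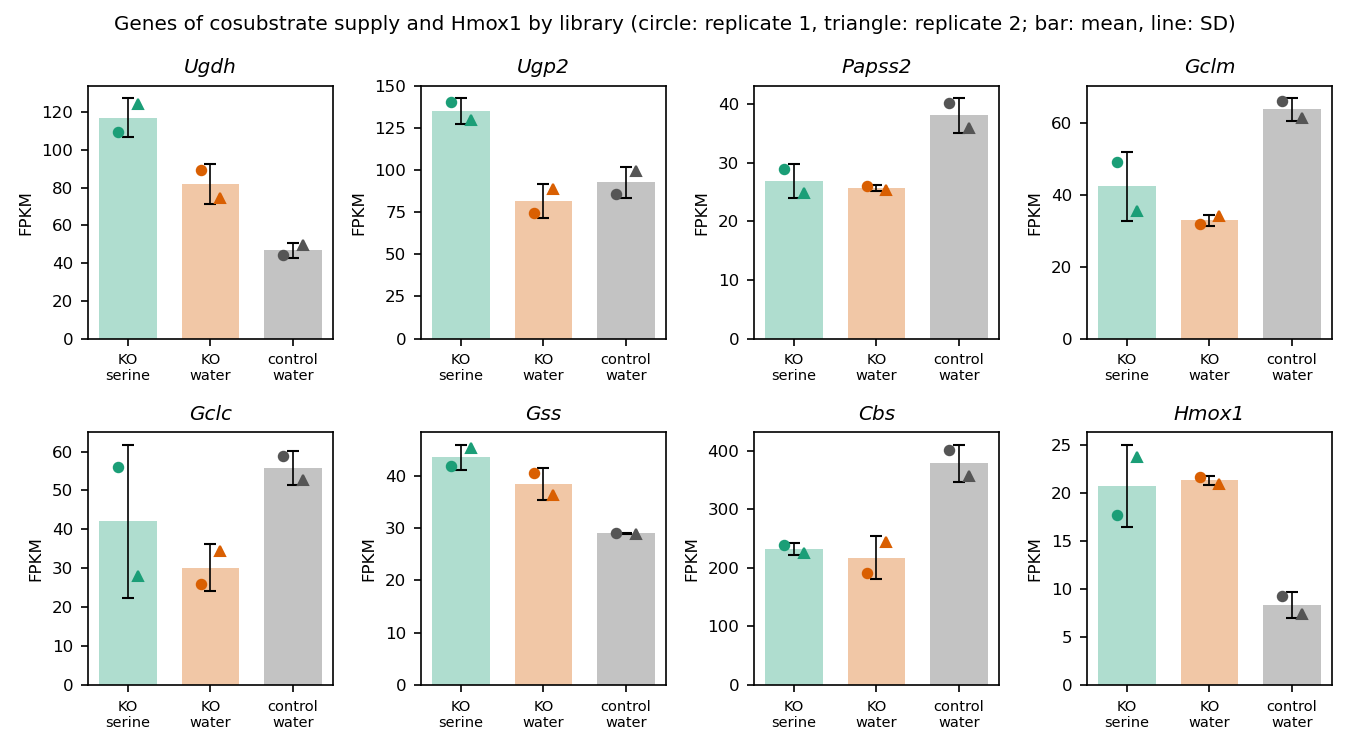
FPKM of genes of cosubstrate supply (Ugdh, Ugp2, Papss2, Gclm, Gclc, Gss, Cbs) and of Hmox1 in each library, with bars for means, lines for the SD of 2 libraries, circles for replicate 1 and triangles for replicate 2. Ugdh, Gss and Hmox1 are higher in every knockout library than in either control, and Papss2, Gclm and Cbs are lower. For Gclc, replicate 1 on serine at 56.02 FPKM lies between the controls.

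Among other conjugation enzymes, As3mt, the arsenite methyltransferase, had 35.44 and 27.64 FPKM in knockouts on serine and 28.0 and 35.83 FPKM in knockouts on water, against 83.38 and 67.38 FPKM in controls. It fell in knockouts on serine with a log2 change of -1.25 (limma adjusted p = 0.0491), which held in 4 of 15 other fits, and the change on water was close to it at -1.23 (adjusted p = 0.0503). Of 11 genes that undo conjugates or hydrolyse esters and epoxides, Ces3b, a carboxylesterase, had 67.22 and 49.95 FPKM in knockouts on serine and 59.76 and 71.63 FPKM in knockouts on water, against 144.15 and 122.23 FPKM in controls. It fell in knockouts on serine at -1.19 (limma adjusted p = 0.049), in 5 of 15 other fits as well, and its change on water was -1.02 (adjusted p = 0.0635). For both genes all 4 knockout libraries lay below both controls.

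None of 6 tested export pumps, 8 uptake transporters and 18 xenobiotic receptors and regulators passed in any comparison. Abcc3, a pump that carries glucuronides into blood, had 137.57 and 133.76 FPKM in knockouts on serine and 149.4 and 153.01 FPKM in knockouts on water, against 102.47 and 108.48 FPKM in controls. Its groups did not overlap, with a log2 change of 0.52 on water (limma adjusted p = 0.0794). Of 12 tested readouts of NRF2, the factor that drives several GST genes, 1 rose in each knockout group against controls. At an unadjusted p below 0.05, 5 were higher and 1 lower on serine, and 3 were higher and 3 lower on water. The list's median log2 change was 0.02 on serine, against 0.16 over all genes, and 0.09 on water, against 0.08 over all genes. The gene that passed was Hmox1, haem oxygenase, whose product is converted to bilirubin, with 17.71 and 23.8 FPKM in knockouts on serine and 21.68 and 20.97 FPKM in knockouts on water, against 9.26 and 7.35 FPKM in controls. Its log2 change was 1.26 on serine (limma adjusted p = 0.0478) and 1.32 on water (adjusted p = 0.0393), calls that held in 5 and 8 of 15 other fits. Of 10 tested readouts of the receptors CAR, PXR and AHR none passed. Against controls, 8 log2 changes were positive and 2 negative on water, with a median of 0.31, against 0.08 over all genes. On serine 5 were positive and 5 negative, with a median of -0.006, against 0.16 over all genes. Cyp2b10, the classical CAR target, had 5.92 and 18.2 FPKM in knockouts on serine and 52.39 and 18.92 FPKM in knockouts on water, against 1.22 and 2.6 FPKM in controls. All knockout libraries were above the controls, with a change of 3.79 on water (limma adjusted p = 0.0552) and the 2 libraries of each knockout group far apart. Cyp3a25 of the same list went the other way, with 153.29 and 85.09 FPKM in knockouts on serine and 101.33 and 126.19 FPKM in knockouts on water. Controls had 319.6 and 302.58 FPKM of Cyp3a25. Its log2 change was -1.46 on water (limma adjusted p = 0.0639) and -1.44 on serine (adjusted p = 0.0557).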

How the data were processed

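Liver RNA-seq of 6 libraries was used as the FPKM values per gene that the authors deposited, whose columns were matched to samples by title; 0 columns of values were left unmapped. The submitters' processing notes name bcl2fastq, HISAT2 2.0.5 and GRCm39. How FPKM was computed, from which annotation and with or without strand, is not given in the sources used here. Rows without a gene annotation were left out. Coordinates of genes are those of the deposited table (GRCm39); promoter sequences come from RefSeq (GRCm38.p6) and transcript windows from GENCODE vM21 (GRCm38), so coordinates of the 2 builds must not be combined.

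The test took genes whose mean reached 1 FPKM, 11134 of the 22014 with any value above 0. Values were put on the scale log2(FPKM + 0.5), and the 3 group means were estimated over the 6 libraries together with limma 3.58.1 in R 4.3.3 (lmFit, then eBayes with a variance trend; 3 residual and 3.46 prior degrees of freedom), with two-sided tests and Benjamini-Hochberg adjustment over all genes of a comparison. The FPKM table gives no counts, so no count model was run. An exact permutation test of 2 against 2 libraries cannot go below p = 0.333 and was not used. Errors and p-values therefore rest on pools of 2 mice and not on single animals. Depth was inferred from single-exon genes of the table: 85.0% to 89.3% of 419 to 447 low values per library were whole multiples of 1 step (tolerance 0.03 beyond rounding, where chance gives 17.3% to 19.0%). Implied fragments of genes with several exons are approximate.

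The genes named are Gapdh, the family members that passed, the 8 with the smallest unadjusted p in each comparison and the 4 most abundant of each family, others being named where their role or subfamily needs it. Of each gene list those that passed are named, or else some of the 3 with the smallest p; some list genes are not reported here. The genes and lists were chosen with earlier results of these data known. The fit was tested on simulated data before use.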

Additional observations from a re-analysis of the deposited data

How the results depend on the processing

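Of 503 values of 33 gene and comparison pairs under other settings, 430 stayed on the same side of the threshold, 66 lost the call, 7 gained it and none changed sign. Every call among these pairs rested on settings, apart from that of Gapdh, which passed in all 15 in both comparisons. The call of Sox9 was not among these pairs. The count of all genes called in knockouts on water against controls, 135, was 2 with no filter, 226 after TPM scaling, 16 with no variance trend, 210 with only the 4 libraries compared and 7 to 215 with 1 library left out. The conjugating enzymes called, 1, were 0 with no filter, 0 with no variance trend, 2 with only the 4 libraries and 0 to 2 with 1 library left out. In knockouts on serine against controls the count of all genes, 131, was 450 with a filter at 5 FPKM, 3 with no filter, 35 after median-of-ratios scaling, 449 after TPM scaling, 8 with no variance trend, 4 with only the 4 libraries and 4 to 203 with 1 library left out. The conjugating enzymes called, 1, were then 3 with the filter at 5 FPKM, 0 with no filter, 0 after median-of-ratios scaling, 0 with no variance trend, 0 with only the 4 libraries and 0 to 2 with 1 library left out. With serine against water in knockouts, 0 to 6 genes passed with 1 library left out, 0 of them conjugating enzymes. The cause of these moves was not tested. Median-of-ratios scaling set the median log2 change of all genes near 0 in every comparison, and TPM scaling gave 0.17 for knockouts on water and 0.24 for knockouts on serine against controls.

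No pairing by replicate number was seen. Deviations of same-numbered libraries from their group means correlated at 0.028 for knockouts on water against controls. The values were -0.197 for serine against water in knockouts and 0.039 for knockouts on serine against controls. Each rests on a single difference between libraries per group, so it cannot decide whether the samples were paired. With the replicate number as a block, 4, 0 and 4 genes were called in these comparisons and 0, 0 and 0 conjugating enzymes. A crossed pairing of serine and water in knockouts, added after seeing the data, called 0 genes.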
